A study of Mus musculus with 2 samples.

Results

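The 33 genes described here make cholesterol, control its synthesis, move and store it inside the cell, or carry it into and out of the cell. They were taken by symbol from the 43346 mouse genes of each gene table, 42462 of which matched an identifier of the GENCODE M21 annotation, and all 33 were found. The set holds 20 synthesis enzymes, 5 genes of sterol regulatory element-binding protein (SREBP) control, 4 genes of transport and storage inside the cell, and 4 genes of uptake and efflux. The set was chosen by the measured expression values of these same libraries, since a difference in sterol synthesis genes between the animals was already known. The differences between pups below are therefore a description, with no test.

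The samples were whole urinary bladders of 2 newborn mice of strain B6NCrl, an inbred C57BL/6-derived strain, taken on postnatal day 0; both came from 1 pregnant female. Pup 2 and pup 1 were each sequenced as 1 library of total RNA above 200 nt, from 10 ng of RNA, and form 1 group of biological replicates (n = 2). No genotype, treatment or second age was compared, and the sex was not collected, so the data give levels in the newborn bladder and the difference between littermates. A bladder is a mixture of cells, so fewer cells of a type and less RNA per cell cannot be told apart.

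Cholesterol is built from acetyl-CoA through mevalonate, isoprenoid diphosphates, squalene and lanosterol, and the last steps remove methyl groups and shift double bonds of the sterol ring. When membranes of the endoplasmic reticulum hold little sterol, Scap escorts SREBP proteins to the Golgi, where they are cut and released to switch on synthesis genes. Insig proteins hold Scap back when sterol is plentiful. Cells that hold a surplus store it as cholesteryl ester or pass it to lipoproteins, a route driven in part by the oxysterol-sensing liver X receptors (LXR). In the bladder, the apical membrane of the urothelium is known for plaques rich in cholesterol.

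The gene tables held 32564563 expected counts in pup 2 and 43653931 in pup 1. Levels are given as TPM, a share of all transcripts that corrects for transcript length. Differences are given as the log2 ratio of pup 2 over pup 1, computed on counts scaled with trimmed mean of M values (TMM) factors, with a 95% exact binomial interval that covers counting error only. Over the 12733 genes that averaged 100 counts or more, the median log2 ratio was -0.02 and the central 95% ran from -0.50 to 0.69. Bladder markers were high in both libraries: the 5 superficial urothelium genes summed to 5690 TPM in pup 2 and 5953 TPM in pup 1, and the 6 smooth muscle genes to 54169 TPM in pup 2, against 59134 TPM in pup 1. Of the 5 adipocyte markers, Adipoq, Cidec and Lep had 0 counts in both pups, and Plin1 had 0 in pup 2 and 1 in pup 1. The other marker, Fabp4, went the other way, at 685.5 TPM in pup 2 and 827.7 TPM in pup 1.

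All 33 genes were expressed, at 1 TPM or more in both pups, and 30 of them reached 10 TPM in both. The median expressed protein-coding gene stood at 14.3 TPM, and in the plot of levels all means but those of Soat1, Npc1, Abca1 and Abcg1 lay above it. Apoe was the highest and the efflux pumps Abca1 and Abcg1 were the lowest. The 20 synthesis enzymes summed to 1163 TPM in pup 2 and 2356 TPM in pup 1.

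**Figure D1:**
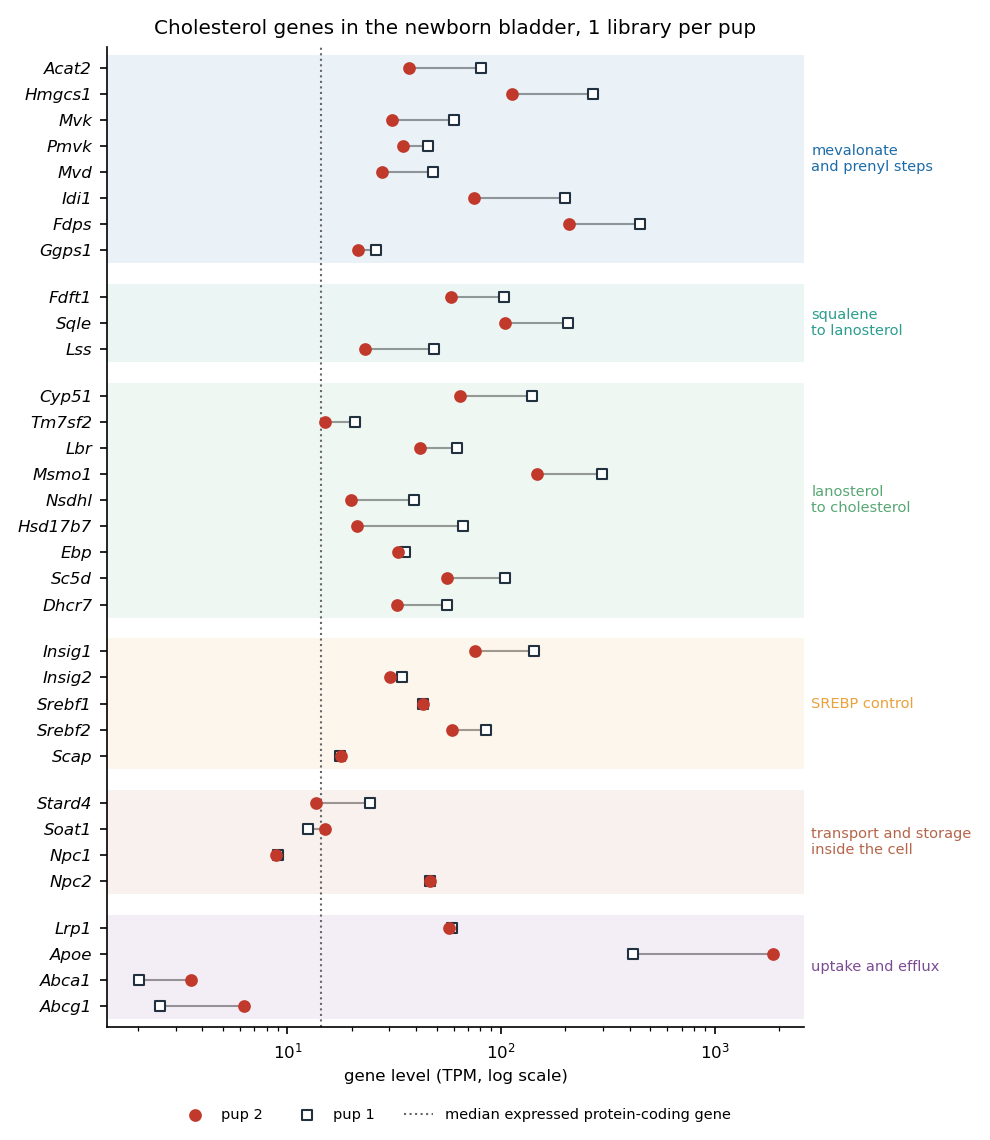
Gene level in TPM (log scale) of the 33 cholesterol genes in pup 2 (filled circles) and pup 1 (open squares), ordered by pathway step; the dotted line is the median expressed protein-coding gene at 14.3 TPM. All synthesis enzymes lie to the left in pup 2, and Apoe, Abca1 and Abcg1 lie to the right.

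The mevalonate and prenyl steps held Fdps, the synthesis enzyme with the highest mean level, and all 8 of their genes were lower in pup 2. Fdps, farnesyl diphosphate synthase, which makes the precursor of both sterols and prenyl groups, had 207 TPM in pup 2 and 447 TPM in pup 1. Its mean of 327 ± 169 TPM (SD, n = 2) exceeded that of 96.8% of the 12568 expressed protein-coding genes. Hmgcs1, the cytosolic synthase of hydroxymethylglutaryl-CoA, on chromosome 13 from 119690379 to 119708260 (mm10), had 113 TPM in pup 2 and 270.1 TPM in pup 1, a mean of 191 ± 111 TPM (SD, n = 2). Idi1, which interconverts the isoprene units, on the same chromosome from 8885501 to 8892451, had 74.7 TPM in pup 2 and 200.3 TPM in pup 1, a mean of 138 ± 88.8 TPM (SD, n = 2). These were the 3 highest levels of the 8, and in each the pups were more than 2-fold apart, with log2 ratios of -1.03 for Fdps, -1.18 for Hmgcs1 and -1.35 for Idi1.

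Acat2, the cytosolic thiolase that joins 2 acetyl-CoA units at the entry of the pathway, had 37.1 TPM in pup 2 and 80.2 TPM in pup 1. The mevalonate kinase Mvk had 30.9 TPM in pup 2 and 60.1 TPM in pup 1, and the decarboxylase Mvd had 27.9 TPM in pup 2 and 47.8 TPM in pup 1. Smaller differences were seen for the phosphomevalonate kinase Pmvk, at 34.7 TPM in pup 2 and 45.3 TPM in pup 1. Ggps1, which extends farnesyl diphosphate for protein prenylation and leads away from sterols, had 21.5 TPM in pup 2 and 26.01 TPM in pup 1. Its log2 ratio of -0.19 (95% interval -0.30 to -0.08) was the closest to 0 of the 8, against -1.03 for Acat2, -0.85 for Mvk, -0.70 for Mvd and -0.32 for Pmvk. The 8 genes summed to 546 TPM in pup 2 and 1176 TPM in pup 1, and their median log2 ratio was -0.94.

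The 3 enzymes from farnesyl diphosphate to lanosterol differed by nearly the same amount. Sqle, squalene epoxidase, a controlled step after mevalonate, had 105 TPM in pup 2 and 205 TPM in pup 1. Fdft1, squalene synthase, which commits carbon to sterols, had 58.3 TPM in pup 2 and 103 TPM in pup 1. Lss, which folds squalene epoxide into lanosterol, had 23.15 TPM in pup 2 and 48.8 TPM in pup 1. All 3 were lower in pup 2, with log2 ratios of -0.89 for Sqle (95% interval -0.93 to -0.85), -0.75 for Fdft1 (-0.80 to -0.69) and -0.89 for Lss (-0.97 to -0.82). They summed to 186 TPM in pup 2 and 358 TPM in pup 1.

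The 9 enzymes that turn lanosterol into cholesterol were all lower in pup 2, over a wider range. Msmo1, Nsdhl and Hsd17b7 act one after the other to strip methyl groups from the sterol ring. Msmo1, the methylsterol oxidase, was the most abundant of the 9 at 147 TPM in pup 2 and 298 TPM in pup 1. Nsdhl, the dehydrogenase of this trio, had 19.8 TPM in pup 2 and 39.1 TPM in pup 1. Hsd17b7, its ketoreductase, on chromosome 1 from 169949535 to 169969241 (mm10), had 21.1 TPM in pup 2 and 66.6 TPM in pup 1. The log2 ratios were -0.98 for Msmo1, -0.90 for Nsdhl and -1.32 for Hsd17b7 (95% interval -1.41 to -1.23). TPM divides by an effective length, which for Hsd17b7 was 2815 bases in pup 2 and 2352 bases in pup 1, and the ratio of TPM gave a log2 value of -1.66.

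Cyp51, the lanosterol demethylase, had 64.1 TPM in pup 2 and 140.2 TPM in pup 1, a log2 ratio of -1.05. It is followed by a sterol reductase step for which the cell has alternative enzymes, Lbr, also the lamin B receptor of the nuclear envelope, and Tm7sf2. Lbr had 41.7 TPM in pup 2 and 61.9 TPM in pup 1, and Tm7sf2 had 15.1 TPM in pup 2 and 20.7 TPM in pup 1. Both were lower in pup 2 by less than the median enzyme, with log2 ratios of -0.51 for Lbr and -0.40 for Tm7sf2. The level of Lbr over Tm7sf2 was 2.77 in pup 2 and 2.99 in pup 1, with Lbr the higher of the pair in both.

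The desaturase Sc5d had 56.0 TPM in pup 2 and 104 TPM in pup 1. Dhcr7, the reductase that gives cholesterol from its dehydro precursor, had 32.7 TPM in pup 2 and 55.9 TPM in pup 1. Both had a log2 ratio of -0.81. Ebp, the sterol isomerase before them, stood apart with 32.9 TPM in pup 2 and 35.4 TPM in pup 1. Its log2 ratio of -0.12 had a 95% counting interval from -0.26 to 0.01 that included 0, so the gene value showed no difference beyond counting error. By transcript, the protein-coding Ebp-201 had 10.7 TPM in pup 2 and 14.1 TPM in pup 1. Ebp-202, annotated as a retained intron, had 9.1 TPM in pup 2 and 8.08 TPM in pup 1. The protein-coding Ebp-203 had 13.05 TPM in pup 2 and 12.4 TPM in pup 1. The 9 genes summed to 430.2 TPM in pup 2 and 822 TPM in pup 1, with a median log2 ratio of -0.81.

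Over all steps, the synthesis enzymes had a median log2 ratio of -0.87, a 1.83-fold lower level in pup 2, and 20 of 20 lay below 0, as did 54.8% of the 12733 genes. At least 1.2-fold lower in pup 2 were 18 of 20 enzymes, the exceptions being Ggps1 and Ebp, against 12.0% of all genes. At least 1.5-fold lower were 15 of 20, against 1.66% of all genes, and at least 2-fold lower were 6 of 20, against 0.283%. Those 6 were Idi1, Hsd17b7, Hmgcs1, Cyp51, Acat2 and Fdps. Close to the 2-fold limit, Fdps lay just inside it at 2.04-fold and Msmo1 just outside at 1.97-fold. Because sterol synthesis was among the patterns known when the genes were chosen, these shares carry no test.

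**Figure D2:**
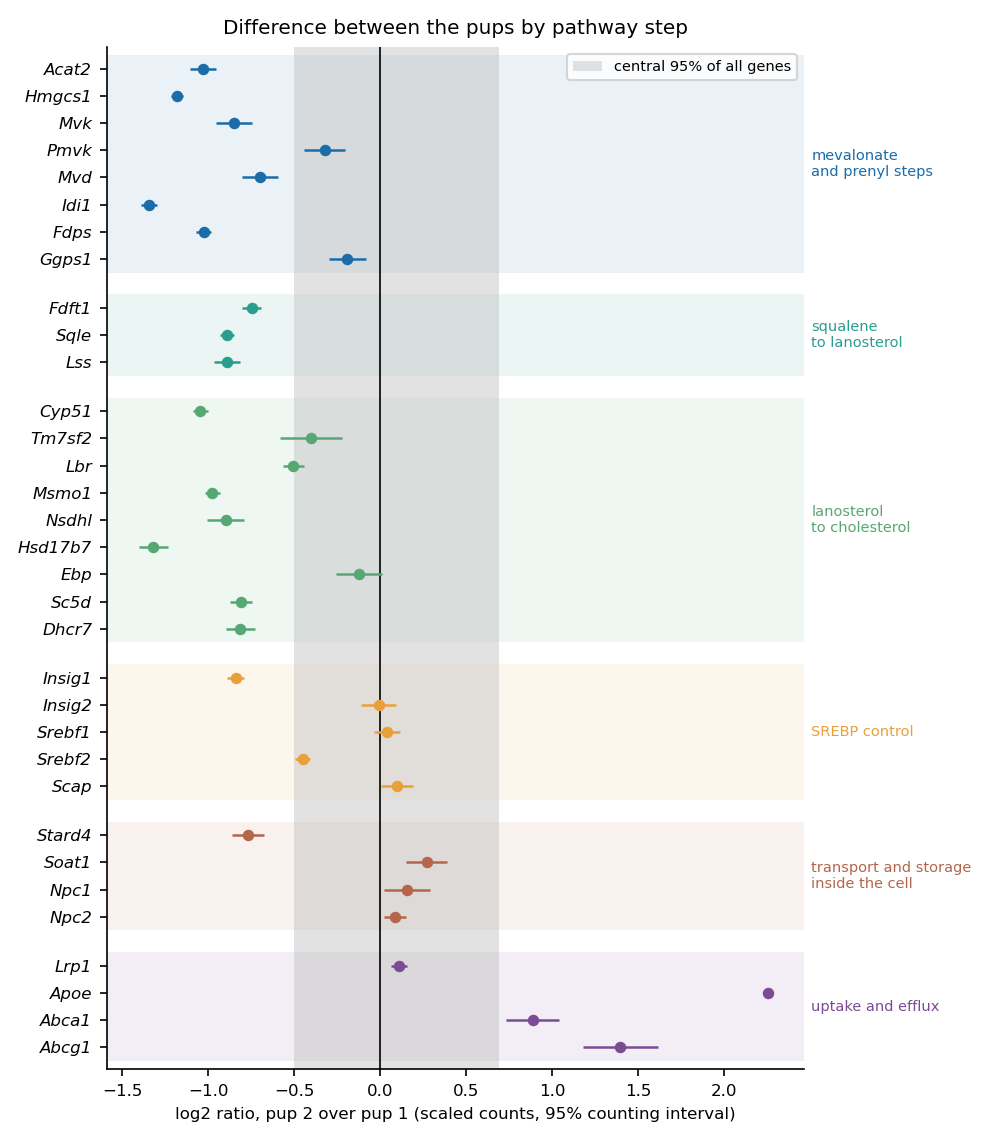
Log2 ratio of pup 2 over pup 1 for each gene (points) with 95% counting intervals (bars), by pathway step; the grey band is the central 95% of 12733 genes, from -0.50 to 0.69. Of the 20 synthesis enzymes only Pmvk, Ggps1, Tm7sf2 and Ebp lie within the band, and Apoe, Abca1 and Abcg1 lie beyond it on the other side.

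The enzymes with the higher levels tended to have the larger differences. Across the 20 synthesis enzymes, the mean log2 TPM and the log2 ratio had a Pearson correlation of -0.57 and a Spearman correlation of -0.56. This is a description across genes that share both libraries, and genes are not independent replicates.

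The promoters of the enzymes that differed most are shown because SREBP proteins bind such regions with the help of NF-Y and Sp1. RefSeq promoter windows (GRCm38.p6, 250 bases before to 50 after each annotated start) were matched for 27 of the 33 genes, all but Fdps, Fdft1, Sqle, Stard4, Npc1 and Abcg1. Each sequence runs 5′ to 3′ on the strand of the gene. Capitals mark matches on either strand to TCACCCCAC, a sterol regulatory element, to its variant TCACCTCA, to CCAAT, the NF-Y box, and to GGGCGG, the Sp1 box. The windows are chr13:119690101-119690400 on the + strand for Hmgcs1, chr13:8885356-8885655 on the + strand for Idi1, chr1:169969156-169969455 on the - strand for Hsd17b7, chr5:4104648-4104947 on the - strand for Cyp51 and chr17:12960676-12960975 on the - strand for Acat2. Apoe, the gene with the largest difference in the other direction, is shown for contrast, with a window at chr7:19699139-19699438 on the - strand. This window is set on the start of Apoe-206, which held 14.4% of the Apoe counts in pup 2 and 14.9% in pup 1.
Hmgcs1: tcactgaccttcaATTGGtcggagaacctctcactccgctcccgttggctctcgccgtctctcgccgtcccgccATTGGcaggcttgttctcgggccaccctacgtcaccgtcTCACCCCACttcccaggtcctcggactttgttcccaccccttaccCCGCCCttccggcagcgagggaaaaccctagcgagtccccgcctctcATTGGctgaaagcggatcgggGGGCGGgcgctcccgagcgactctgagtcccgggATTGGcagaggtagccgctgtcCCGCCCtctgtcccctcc
Idi1: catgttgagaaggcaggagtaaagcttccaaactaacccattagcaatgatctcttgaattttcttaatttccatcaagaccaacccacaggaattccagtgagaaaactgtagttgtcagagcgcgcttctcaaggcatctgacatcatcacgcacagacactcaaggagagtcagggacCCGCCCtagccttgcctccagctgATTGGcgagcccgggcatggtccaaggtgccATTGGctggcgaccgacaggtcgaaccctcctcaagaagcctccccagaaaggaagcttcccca
Hsd17b7: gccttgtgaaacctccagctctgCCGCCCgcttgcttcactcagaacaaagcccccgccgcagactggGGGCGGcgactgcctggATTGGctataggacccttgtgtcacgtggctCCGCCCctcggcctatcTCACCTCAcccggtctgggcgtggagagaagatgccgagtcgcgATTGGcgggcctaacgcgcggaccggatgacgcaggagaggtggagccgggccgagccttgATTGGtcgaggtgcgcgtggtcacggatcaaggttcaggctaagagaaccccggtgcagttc
Cyp51: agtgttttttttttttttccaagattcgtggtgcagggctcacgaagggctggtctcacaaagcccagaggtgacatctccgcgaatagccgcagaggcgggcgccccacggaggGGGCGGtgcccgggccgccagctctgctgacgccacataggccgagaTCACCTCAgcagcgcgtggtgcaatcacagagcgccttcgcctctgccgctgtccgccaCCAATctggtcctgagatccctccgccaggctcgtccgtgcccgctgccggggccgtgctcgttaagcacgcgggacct
Acat2: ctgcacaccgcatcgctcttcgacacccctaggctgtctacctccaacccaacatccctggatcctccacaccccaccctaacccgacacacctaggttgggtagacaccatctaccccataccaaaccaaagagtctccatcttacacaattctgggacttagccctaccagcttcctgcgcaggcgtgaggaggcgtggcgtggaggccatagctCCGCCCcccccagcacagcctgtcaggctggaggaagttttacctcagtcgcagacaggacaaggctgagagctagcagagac
Apoe: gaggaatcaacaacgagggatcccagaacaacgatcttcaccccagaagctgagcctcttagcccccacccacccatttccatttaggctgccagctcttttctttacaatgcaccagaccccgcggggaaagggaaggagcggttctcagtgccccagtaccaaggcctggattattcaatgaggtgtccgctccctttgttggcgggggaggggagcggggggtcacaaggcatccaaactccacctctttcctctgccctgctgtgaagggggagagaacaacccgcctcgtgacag

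Hmgcs1 was the only gene among the 27 with a match to TCACCCCAC, at -137 bases from the start, a motif held by 0.551% of all 32851 windows and 0.547% of those of expressed protein-coding genes. Allowing any base at the fifth letter, TCACNCCAC, added no other gene and was found in 1.24% of all windows. The variant TCACCTCA, searched only after the windows had been read, was in Cyp51 at -88 and in Hsd17b7 at -117 bases from the start, and in 1.17% of all windows. CCAAT was far more common: 16 of the 20 windows of synthesis enzymes held it, against 37.4% of all windows and 37.5% of those of expressed protein-coding genes. By gene, 16 of the 17 enzymes with a window had it, Acat2 being the exception. CCAAT was held by 41.1% of all genes with a window and by 43.0% of the expressed protein-coding ones. The enzymes whose ratios lay within the central 95% of all genes, Pmvk, Ggps1, Tm7sf2 and Ebp, had it too. GGGCGG was in 16 of the 20 windows, against 35.7% of all windows and 62.4% of those of expressed protein-coding genes. None of the 3 windows of Apoe held any of these motifs, and the window of Abca1 held GGGCGG alone. The leading Apoe transcript, Apoe-209, with 84.5% of the Apoe counts in pup 2 and 82.7% in pup 1, starts at 19699008. That start lies outside the 3 windows, so its own promoter window was not examined. A match is a string of letters and not a measured binding site, and no match says only that these letters are not in the window.

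**Figure D3:**
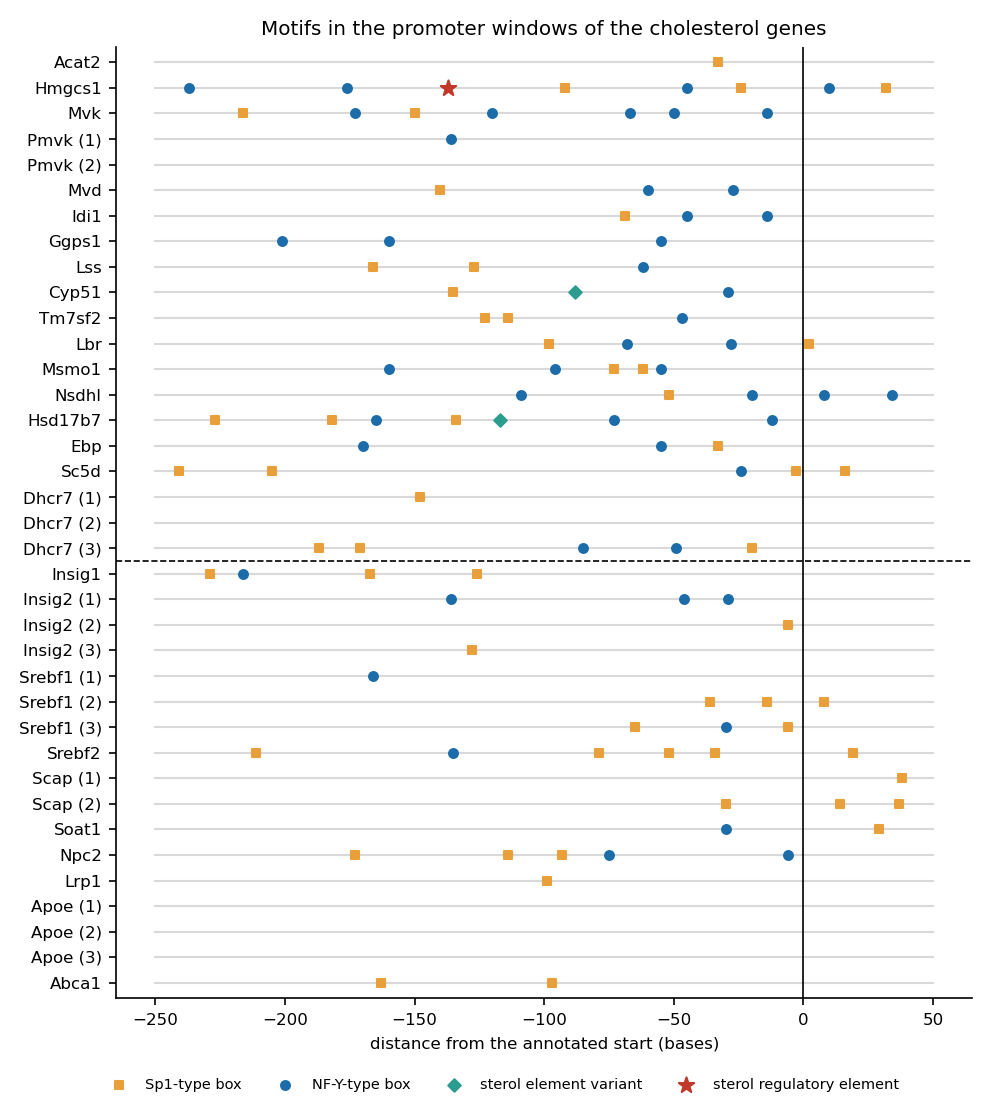
Positions of the motif matches in the 37 promoter windows of 27 cholesterol genes, as distance in bases from the annotated start; the dashed line separates synthesis enzymes (above) from the other genes, and numbers in parentheses tell several windows of a gene apart. NF-Y-type boxes (circles) occur in 16 of 20 enzyme windows. The exact letters TCACCCCAC (star) occur in Hmgcs1 alone, and the variant TCACCTCA (diamonds) occurs in Cyp51 and Hsd17b7.

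Of the genes that control SREBP, Insig1 and Srebf2 were lower in pup 2, and Insig2, Srebf1 and Scap were nearly equal between the pups. Insig1, which retains Scap in the endoplasmic reticulum and is itself an SREBP target, had 75.5 TPM in pup 2 and 143 TPM in pup 1, a log2 ratio of -0.84 (95% interval -0.89 to -0.79). Insig2, which has the same task and is not driven by SREBP in the same way, had 30.1 TPM in pup 2 and 34.5 TPM in pup 1. Its log2 ratio was -0.01 (95% interval -0.11 to 0.09). The level of Insig1 over Insig2 was thus 2.51 in pup 2 and 4.14 in pup 1.

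Srebf2, which encodes the SREBP best known for cholesterol genes, had 59.0 TPM in pup 2 and 85.3 TPM in pup 1, a log2 ratio of -0.45. Srebf1, whose products include the form best known for fatty acid genes, had 43.2 TPM in pup 2 and 43.35 TPM in pup 1, with a log2 ratio of 0.04. Srebf2 exceeded Srebf1 in both libraries, by 1.37 in pup 2 and 1.97 in pup 1. Scap, the escort, had 17.9 TPM in pup 2 and 17.6 TPM in pup 1, with a log2 ratio of 0.10. At least 1.2-fold lower in pup 2 were 2 of these 5 genes, Insig1 and Srebf2, against 12.0% of all genes, and none was 1.2-fold higher, against 11.4% of all genes.

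Srebf1 has alternative starts, known to give SREBP forms that differ at their amino terminus. The transcript with most of its counts, Srebf1-201, starts at 60220604 on chromosome 11 (mm10) and held 82.2% of them in pup 2 and 76.3% in pup 1. The protein-coding Srebf1-207, with a downstream start at 60210465, held 10.41% of the counts in pup 2 and 13.05% in pup 1. The upstream start at 60222581 was represented by the short transcript Srebf1-204, annotated as a processed transcript and not as protein-coding. It took 4.52% of the counts in pup 2, against 3.71% in pup 1. Because that transcript is 367 nt long, the same reads made up 40.4% of the level per length in pup 2 and 34.0% in pup 1.

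Insig2 also used several starts. Insig2-201, starting at 121328024 on chromosome 1, held 75.4% of its counts in pup 2, against 69.4% in pup 1. Insig2-208, starting at 121327746, held 20.2% in pup 2, against 28.8% in pup 1. Elsewhere the leading transcript by level was the same in both pups for 32 of the 33 genes. Only Ebp changed it, to Ebp-203 at 39.7% in pup 2, against Ebp-201 at 39.9% in pup 1, while Ebp-201 held most counts in both. With 1 library per pup, these shares have no test.

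Inside the cell, Stard4 differed in the same direction as the enzymes. Stard4, a carrier that moves cholesterol between membranes and is an SREBP target, had 13.65 TPM in pup 2 and 24.3 TPM in pup 1, a log2 ratio of -0.77 (95% interval -0.86 to -0.68). Npc1 and Npc2, which together export cholesterol from the lysosome, were within 1.2-fold between the pups. Npc1 had 8.87 TPM in pup 2 and 9.01 TPM in pup 1, and Npc2 had 46.8 TPM in pup 2 and 46.5 TPM in pup 1. Npc2 over Npc1 was 5.27 in pup 2 and 5.16 in pup 1. Soat1, which esterifies cholesterol for storage, had 15.0 TPM in pup 2 and 12.4 TPM in pup 1, with a log2 ratio of 0.27 (95% interval 0.15 to 0.39), the only 1 of these 4 that was 1.2-fold higher in pup 2.

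Apoe and the efflux pumps ran the other way, while the uptake receptor Lrp1 was within 1.2-fold between the pups. Apoe, the lipoprotein component that macrophages and other cells release with cholesterol, on chromosome 7 from 19696109 to 19699188 (mm10), had 1867 TPM in pup 2 and 416 TPM in pup 1, a mean of 1141 ± 1026 TPM (SD, n = 2). It was 4.77-fold higher in pup 2, with a log2 ratio of 2.25 (95% interval 2.23 to 2.28), and 0.377% of all genes had a higher ratio. Abcg1, a pump that passes sterol to lipoprotein particles, had 6.28 TPM in pup 2 and 2.52 TPM in pup 1, a log2 ratio of 1.40 (95% interval 1.18 to 1.61). Abca1, the pump that loads apolipoproteins, had 3.52 TPM in pup 2 and 2.01 TPM in pup 1, a log2 ratio of 0.89 (95% interval 0.74 to 1.04). Both pumps were at low levels, with 527 counts of Abcg1 in pup 2 against 265 in pup 1, and 855 counts of Abca1 in pup 2 against 612 in pup 1.

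Lrp1, the endocytic receptor for lipoprotein remnants and many other ligands, had 56.9 TPM in pup 2 and 59.2 TPM in pup 1, with a log2 ratio of 0.11 that was -0.06 by the ratio of TPM. Its level per length rests on short pieces: the full transcript Lrp1-201, of 14888 nt, held 81.1% of its counts in pup 2 and 80.2% in pup 1 but was given 16.45 TPM in pup 2 and 15.9 TPM in pup 1. Of the 4 uptake and efflux genes, 3 were at least 1.5-fold higher in pup 2, against 3.25% of all genes, and 2, Apoe and Abcg1, at least 2-fold, against 1.70%.

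Macrophage genes moved with Apoe, Abca1 and Abcg1. Of 11 macrophage markers, 10 were higher in pup 2, against 45.2% of the 12733 genes, and all were detected. They summed to 1965 TPM in pup 2 and 618 TPM in pup 1, with a median log2 ratio of 1.18, a range from -0.14 for Aif1 to 2.43 for Lyz2, and 1.19 for Csf1r. The 5 erythroid genes summed to 59101 TPM in pup 2 and 21719 TPM in pup 1. The part of either in the differences of Apoe and the pumps was not tested.

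Hepatocyte and proliferation genes moved with the synthesis enzymes. All 7 hepatocyte markers were lower in pup 2, with a median log2 ratio of -2.03, and summed to 23.4 TPM in pup 2 and 90.8 TPM in pup 1. All 7 proliferation markers were lower, against the same 54.8% of all genes, with a median log2 ratio of -0.54 and a range from -0.78 to -0.26. Their TPM summed to 240.1 in pup 2 and 334 in pup 1. Smooth muscle markers had a median log2 ratio of -0.12, superficial urothelium 0.02, fibroblast -0.13 and Schwann cell 0.24. The part of these cell types in the difference of the enzymes was not tested.

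Of 63 other pathway genes in 6 lists, 58 were at 1 TPM in both pups, and the 55 that averaged 100 counts or more had a median log2 ratio of -0.01. At least 1.2-fold lower were 8 of the 55, against 12.0% of all genes, and at least 1.2-fold higher were 15 of the 55, against 11.4% of all genes. None of the 10 genes of SREBP processing and sterol sensing passed 1.2-fold in either direction, among them Vcp, an extraction motor for proteins of the endoplasmic reticulum, at 246 TPM in pup 2 and 271 TPM in pup 1. Ufd1, its cofactor, had a log2 ratio of -0.02, and the SREBP protease Mbtps1 had 0.01. All 11 genes of the non-sterol branch were detected, led by the prenyltransferase subunit Fnta at 56.7 TPM in pup 2 and 58.3 TPM in pup 1, with Coq2, an enzyme of ubiquinone synthesis, and Rabggtb, a prenyltransferase subunit, next. Their median log2 ratio was -0.05, and 1 of 11 was 1.2-fold lower, Pdss1 at -0.47, and 1 was 1.2-fold higher, Rabggta at 0.30.

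The oxysterol and LXR list had a median log2 ratio of 0.26, over the 10 of 11 genes that averaged 20 counts or more. Its highest members were Nr1h2, the widely expressed LXR, at 59.95 TPM in pup 2 and 56.7 TPM in pup 1, and Hsd3b7, of bile acid synthesis, at 32.97 TPM in pup 2 and 23.4 TPM in pup 1. Cyp7b1, an oxysterol hydroxylase, had 13.1 TPM in pup 2 and 13.3 TPM in pup 1. Nr1h3, the LXR best known from macrophages and liver, was low at 2.35 TPM in pup 2 and 2.06 TPM in pup 1. Sterol transfer, hydrolysis and storage genes had a median of 0.04, led by Scp2, Osbpl9 and Osbpl2 at log2 ratios of -0.18, -0.01 and -0.02. Lipoprotein receptors had a median of 0.00, led by the chaperone Lrpap1 at 104 TPM in pup 2 and 108 TPM in pup 1, followed by the high-density lipoprotein receptor Scarb1 at 37.4 TPM in pup 2 and 44.1 TPM in pup 1. Msr1, a macrophage scavenger receptor, had 37.25 TPM in pup 2 and 7.68 TPM in pup 1.

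Among the lipoproteins and their enzymes, members went in both directions. Clu, Apoc1 and the transfer protein Pltp were the highest, at 79.6 TPM in pup 2 and 76.4 TPM in pup 1 for Clu, 101 TPM against 46.3 TPM for Apoc1, and 78.6 TPM against 61.3 TPM for Pltp. At least 2-fold higher in pup 2 were Apoc1, at a log2 ratio of 1.21, and Apoc2, at 2.85, both neighbours of Apoe in a gene cluster, and the receptor Msr1, at 2.43. At least 2-fold lower were the liver-type apolipoproteins Apoa1, at -2.01, and Apoa2, at -2.35, both also counted among the hepatocyte markers above. These 5 were the only genes of the 6 lists, among those averaging 100 counts, that were 2-fold apart.

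**Figure D4:**
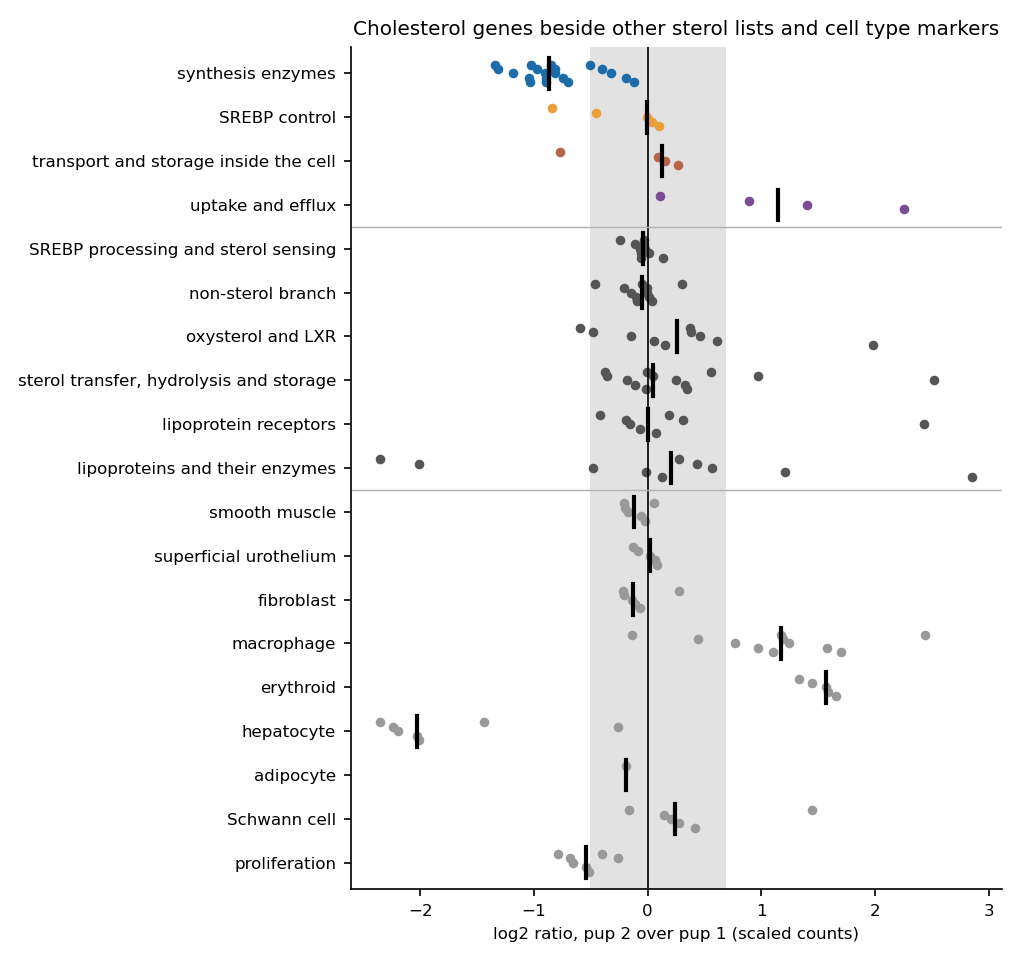
Log2 ratio of pup 2 over pup 1 for each gene (points) and the median (black bars) of the cholesterol genes, of 6 other sterol lists and of 9 marker lists, for genes that averaged 20 counts or more; the grey band is the central 95% of all genes, from -0.50 to 0.69. Synthesis enzymes have a median of -0.87, while SREBP processing genes lie around -0.05.

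Annotated neighbours limit some of these values. Strand use by the counting is not given in the sources used here, and 12 of the 33 genes overlap a gene on the opposite strand. Fdft1 overlaps Ctsb, which had 23007 counts in pup 2 and 22094 in pup 1, while Fdft1 itself had 3851 in pup 2 and 8550 in pup 1. Cyp51, with 5857 counts in pup 2 and 16001 in pup 1, overlaps Akap9, with 2032 in pup 2 and 2860 in pup 1. Ggps1, with 1168 counts in pup 2 and 1766 in pup 1, overlaps Arid4b. Arid4b had 1334 in pup 2 and 1820 in pup 1, more than Ggps1 in both. Npc1, with 860 counts in pup 2 and 1021.5 in pup 1, overlaps Rmc1. Rmc1 had 965 in pup 2 and 1096.5 in pup 1, more than Npc1 in both. Mvd overlaps Gm20388, which was given 325 counts in pup 2 and 0 in pup 1, while Mvd had 1108 in pup 2 and 2378 in pup 1. Tm7sf2 overlaps Vps51 on the same strand, with 1359 counts in pup 2 and 1625 in pup 1, while Tm7sf2 had 394 in pup 2 and 688 in pup 1. Reads from the opposite-strand pairs cannot be told apart without strand. The estimator's own uncertainty in dividing reads was at most 2.11% of the count in pup 2 among the 33 genes, in Tm7sf2.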

How the data were processed

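Total RNA-seq libraries of 2 newborn bladders were used as the authors' gene and transcript tables, on mm10 with GENCODE M4 per the listing deposited with each sample. The layout is that of RSEM; the sources used here give no aligner, version or strand setting. Expected counts, as deposited, are the estimator's read numbers for each gene or transcript, with no normalisation. The deposited TPM sums to a fixed total over every entry of a file, and the deposited FPKM is per kilobase and depth. The deposited transcript shares are in percent of the gene, and the deposited score used here is the posterior SD of each count.

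Expected counts were rounded and scaled with TMM factors (edgeR 4.0.16, R 4.3.3). Log2 ratios of pup 2 over pup 1 carry exact binomial (Clopper-Pearson) 95% intervals, which cover counting error only, since PCR copies are not told apart. With 1 library per pup there are no residual degrees of freedom, so no p-value was computed. List medians used genes that averaged 20 counts or more, and numbers past 1.2, 1.5 and 2-fold those that averaged 100. Python 3.11.15, pandas 2.3.3, scipy 1.17.1 and matplotlib 3.10.9 were used. The ratio was tested on simulated data.

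The members and lists were chosen with earlier results of these data known. Named genes are all 33 members, up to 3 of the highest genes of each other list and its genes 2-fold apart, except 1 gene not reported here; Nr1h3, Mbtps1, Pdss1, Rabggta and the overlapping genes were named after their values were seen. Alternatives covered the scaling, the unit, the posterior means, the count minimum and each pup alone. A planned comparison of protein sequences was not made.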

Additional observations from a re-analysis of the deposited data

How the results depend on the processing

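Each of the 33 log2 ratios was recomputed under 5 alternatives: median-of-ratios size factors, total count scaling, posterior mean counts, the ratio of TPM and log2(TPM + 1). Of the 165 values, 161 moved by less than the robust SD of 0.21 over all genes, 4 moved by more, and none of the genes at least 1.2-fold apart changed direction. The sign changed 7 times, in Insig2, Lrp1, Npc1 and Srebf1, all within 1.2-fold. With log2(TPM + 1), which understates low genes, the median of the uptake and efflux genes was 0.82. The numbers of genes past 1.2-fold stayed within 1.5 times. In FPKM, a unit on another scale, the median levels were 30.7 for SREBP control, 11.6 for transport and storage and 22.2 for uptake and efflux; by posterior mean TPM SREBP control was at 44.2. By posterior means Lbr over Tm7sf2 was 2.72 and Npc2 over Npc1 was 5.07; the cause was not tested. Leaving out either pup gives the values printed per pup. Abcg1, with 527 counts in pup 2 and 265 in pup 1, and Tm7sf2, with 394 in pup 2 and 688 in pup 1, rest on the fewest counts.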

Other observations

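A pair of low genes of the wider network, named after their values were seen, stood out by their ratios but fell below a mean count of 100. Ch25h, which makes an oxysterol that restrains SREBP activation, had 119 counts in pup 2 and 39.8 in pup 1, a log2 ratio of 1.98 (95% counting interval 1.45 to 2.53). Soat2, the esterifying enzyme best known from liver and intestine, had 39 counts in pup 2 and 9 in pup 1, a log2 ratio of 2.52 (95% counting interval 1.45 to 3.75). Gramd1b, a carrier of sterol from the plasma membrane, had 126 counts in pup 2 and 85 in pup 1, at a log2 ratio of 0.97. Cyp7a1, the bile acid enzyme of liver, had 1 count in pup 2 and 4 in pup 1.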
